A study of Sus scrofa with 48 samples.

Results

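The interferon-stimulated genes are the set of antiviral and immune genes that cells switch on when they meet interferon. They were chosen by name from a list of 39 genes, and 33 of the 39 had at least 1 probe of that gene name on the porcine array. Where a gene had several probes, the probe with the brightest mean signal stood for it. For 31 genes that probe was among the 38142 of 60306 porcine probes that the authors kept after quality filtering, and these 31 genes, of 27109 gene names with a kept probe, carry the comparisons. The chosen probes of DHX58 and IFITM2 were not kept. RSAD2, HERC6, EIF2AK2, IFITM3, SP110 and CMPK2 had no probe by name, although RSAD2 and EIF2AK2 were found through accessions under the older names IRG6 and PKR.

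Perirenal adipose tissue (PRAT), the fat around the kidney, was taken from 48 pigs of 132 days of age. The pigs were Large White barrows from a pair of lines bred apart on residual feed intake (RFI), a score of how much more or less a pig eats than its growth calls for, and low RFI pigs are the more efficient eaters. Pigs of each line ate freely of HF, a feed rich in fat and fiber, or of LF, a feed low in both and rich in starch. The 4 groups of 12 pigs were HF_RFIneg (low RFI, HF), HF_RFIpl (high RFI, HF), LF_RFIneg (low RFI, LF) and LF_RFIpl (high RFI, LF). Every pig came from a selected line, no unselected pigs were part of the comparison, and no label names an infection or an interferon treatment. Each pig had its own one-colour array, and 6 slides of 8 arrays each held 2 arrays of every group.

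Interferons are secreted proteins by which a cell that senses viral nucleic acid warns its neighbours. Type I interferons bind a receptor made of IFNAR1 and IFNAR2, whose kinases JAK1 and TYK2 activate STAT2. Together with IRF9 it takes part in a complex that switches on the interferon-stimulated genes, while type II interferon (IFNG) induces factors such as IRF1. In adipose tissue, adipocytes, vessel cells and resident immune cells can all respond.

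Values are log2 signals minus the median of the kept probes on the same array, so a difference of 1 is a doubling. Each probe has its own brightness, and levels were therefore never compared between genes. Diet differences are HF minus LF and line differences are low RFI minus high RFI, both from a limma fit that also held a term for diet by line. A probe was called when its raw p-value was under 0.01, its fold change over 1.1 and its Benjamini-Hochberg (BH) p-value over all kept probes under 0.08. The chosen probes of the 31 genes were well above background on all 48 arrays. Of the adipocyte markers 6 of 6 were kept, with a mean level between 6.55 and 7.44 above the array median in every pig. Other cell types that fat can hold also had kept markers. These were 6 of 6 macrophage, 4 of 6 T and natural killer (NK) cell and 4 of 6 granulocyte markers. Also kept were 4 of 6 erythrocyte, 5 of 6 endothelial, 3 of 6 plasmacytoid dendritic cell and 2 of 6 B cell markers. The 4 kept of the T and NK cell list were CD2, CD3D, CD3E and CD8A. NKG7 and GNLY were not kept, so this list as measured held mainly T cell genes. Of the neighbouring organs, 1 of 6 kidney and 3 of 6 adrenal markers were kept.

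Few of these genes were called between diets. Among the 31, 1 was called higher in HF pigs (IFI16) and 1 lower (IRF7), while 8.94% of all kept probes were called higher, 15.5% lower and 24.5% in either direction. The share of called genes in the set was 6.45%. These genes also varied more between pigs of a group, with a median SD of 0.45 against 0.21 over all kept probes. The part of this wider spread in the share called was not tested. Diet differences lay above 0 for 21 of the 31 genes with a median of 0.10, against a median of -0.02 over all kept probes. Between 21 and 30 of the 31 lay above 0 under other scalings of the arrays.

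**Figure D1:**
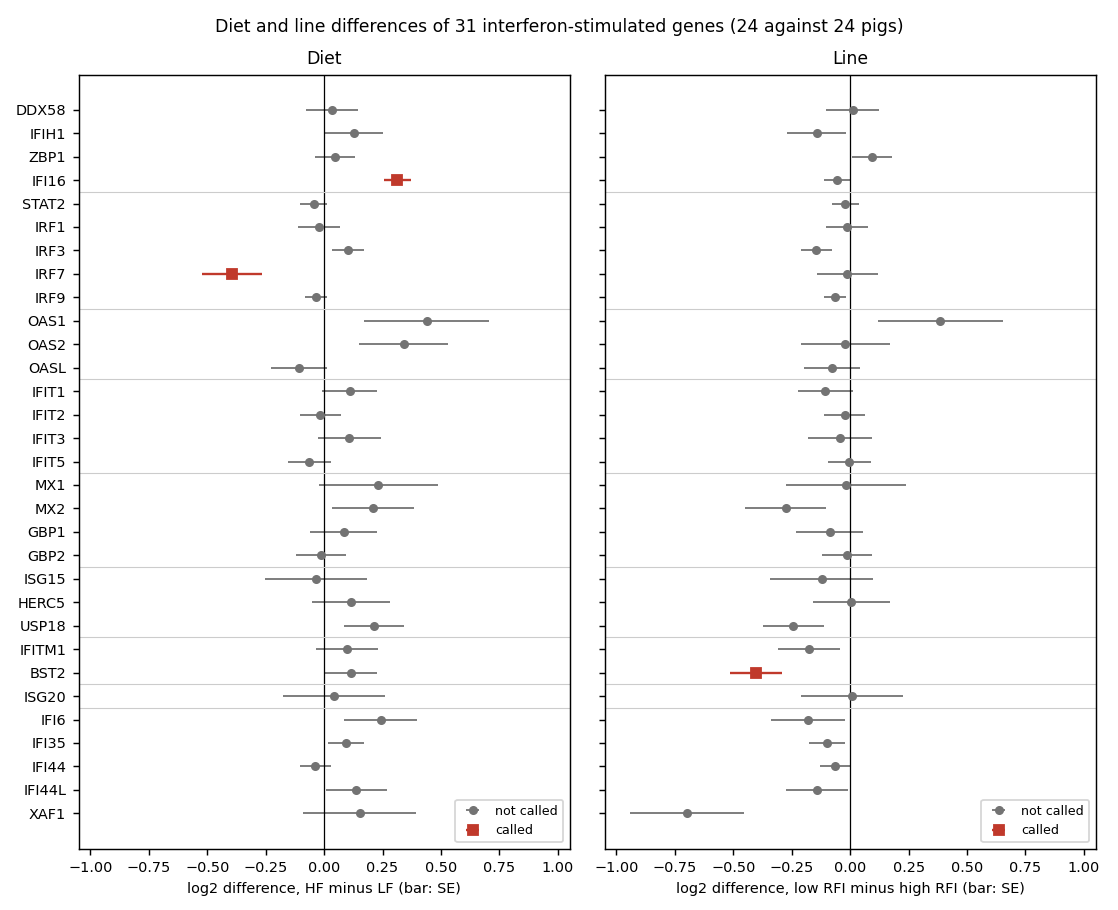
Log2 differences of the 31 genes between diets (left, HF minus LF) and between lines (right, low RFI minus high RFI), with bars of 1 standard error and genes grouped by role. The called genes are drawn as squares and are IFI16 and IRF7 for diet and BST2 for line, while most other genes sit within about 1 or 2 standard errors of 0.

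Among the sensors of viral nucleic acid, IFI16, which binds DNA in the nucleus and cytoplasm, was the gene called. Its values ran from 2.60 through a median of 3.1 to 3.56 in HF pigs and from 2.44 through 2.80 to 3.06 in LF pigs. The ranges overlapped, but the HF median lay above the highest LF pig. The difference was 0.31 (SE 0.059, a fold change of 1.24, limma BH p = 8.78e-05, n = 24 per diet). It was called in each line alone, at 0.34 in low RFI pigs (limma BH p = 0.00793) and 0.29 in high RFI pigs (limma BH p = 0.0164). Within the 6 slides the difference ran from 0.18 to 0.52 and was above 0 on each of them. Both IFI16 probes, which read different stretches of the transcript and share no run longer than 6 bases, were called and are shown because this is the clearest diet call of the set.
IFI16, probe used here: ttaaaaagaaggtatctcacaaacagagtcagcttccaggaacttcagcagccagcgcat
IFI16, other probe: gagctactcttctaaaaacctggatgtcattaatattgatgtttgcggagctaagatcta

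In whole tissue a larger share of cells of a type and more RNA per cell cannot be told apart. Macrophage markers also differed between diets, with 4 of 6 called higher in HF pigs and none lower, against 8.94% of all kept probes called higher. The 4 were C1QA (0.80), CD163 (0.70), CSF1R (0.48) and AIF1 (0.36). Of the other marker lists, 1 of 5 kept endothelial markers was called higher, and 2 adipocyte, 1 erythrocyte and 1 kidney marker were called lower. The mean level of the macrophage list ran from -0.12 to 1.64 in HF_RFIneg, from 0.01 to 1.76 in HF_RFIpl, from -0.33 to 1.46 in LF_RFIneg and from -0.05 to 0.74 in LF_RFIpl. Across the 48 pigs, after group means were removed, IFI16 and the macrophage list had r = -0.04, the lowest of the marker lists. The other lists ran from 0.08 (adrenal) to 0.36 (endothelial), with the plasmacytoid dendritic cell list at 0.31. The part of macrophages or of these other cells in the IFI16 difference was not tested. The other kept sensors had smaller diet differences, from 0.03 for DDX58 (RIG-I, a sensor of viral RNA; SE 0.112) upwards, and none was called.

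Among the transcription factors, IRF7, which drives the production of type I interferon, was lower in HF pigs. It ran from 2.18 through a median of 2.67 to 4.18 in HF pigs and from 2.30 through 3.14 to 4.28 in LF pigs. The ranges overlapped almost wholly, yet the LF mean exceeded 22 of the 24 HF values. The difference was -0.39 (SE 0.130, a fold change of 1.31, limma BH p = 0.0181, n = 24 per diet), and it lay below 0 on all 6 slides, from -0.62 to -0.14. In high RFI pigs it was -0.57 (limma BH p = 0.0353) and in low RFI pigs -0.22 (limma BH p = 0.449), and the difference between the lines was not called (0.34, SE 0.261, raw limma p = 0.193). The call was lost in 5 of 16 alternative analyses, in 3 of them through another scaling. Of the 3 IRF7 probes, 2 were called and the dimmest was not (-0.17, limma BH p = 0.0534), and the dimmest had r = 0.27 with the probe used here, across 48 pigs of the same arrays. The called probe that was not chosen and the dimmest probe are shown as the file lists them, and their orientation was not checked.
IRF7, called probe: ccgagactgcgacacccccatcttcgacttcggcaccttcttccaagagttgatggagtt
IRF7, dimmest probe: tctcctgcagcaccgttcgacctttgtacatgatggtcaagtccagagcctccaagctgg

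IRF3, a relative of IRF7 that is present before infection, had the highest diet difference of the transcription factors at 0.10 (SE 0.068), which was not called. One HF_RFIpl pig, number 9, stood at 4.66 for IRF3, while the next pig was at 3.61. The other kept IRF3 probe did not show this, with a highest value of 3.4 in any pig. The pig was picked out after its value was seen.

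**Figure D2:**
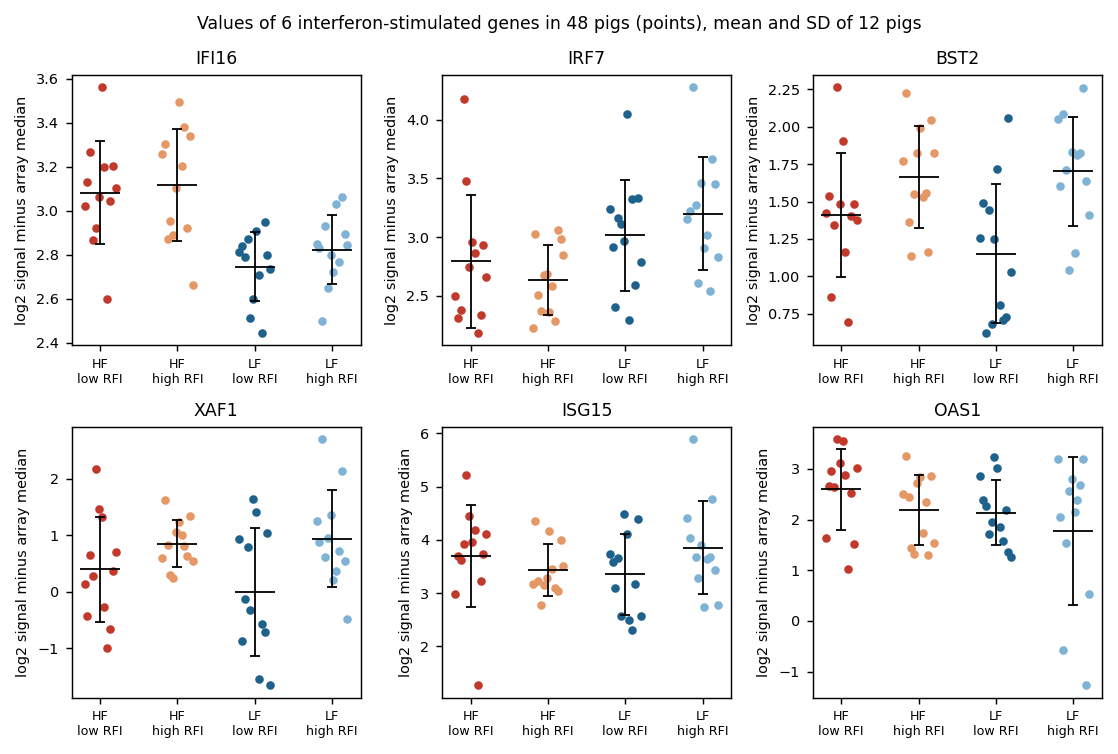
Log2 signal minus array median of IFI16, IRF7, BST2, XAF1, ISG15 and OAS1 in each of the 48 pigs (points), with the mean and SD of the 12 pigs of a group, on a scale of its own for each gene. IFI16 sits higher in both HF groups and BST2 lower in both low RFI groups, while single pigs of ISG15 and OAS1 lie far from the rest of their group.

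No effector family had a member called for diet. In the OAS family, in which OAS1 and OAS2 make the messenger that activates RNase L and OASL lacks that activity, differences ran from -0.11 for OASL (SE 0.120) to 0.44 for OAS1 (SE 0.267, raw limma p = 0.107), with OAS2 at 0.34 (SE 0.191, raw limma p = 0.0814). OAS1 ran from 1.02 through 2.58 to 3.58 in HF pigs and from -1.27 through 2.17 to 3.23 in LF pigs, and the 3 lowest values were LF_RFIpl pigs. In the IFIT family, which binds foreign RNA ends, differences ran from -0.06 (IFIT5) to 0.11 (IFIT1). Among the large GTPases that block virus replication they ran from -0.01 (GBP2) to 0.23 (MX1, SE 0.256).

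ISG15, a ubiquitin-like protein attached to other proteins during infection, differed by -0.04 (SE 0.220), and USP18, the protease that removes it, by 0.21 (SE 0.129). The membrane proteins IFITM1 and BST2 differed by 0.10 and 0.11. The RNA exonuclease ISG20 differed by 0.04 (SE 0.217). In the remaining group the range was from -0.04 for IFI44 to 0.24 for IFI6 (SE 0.157), a mitochondrial protein. With 24 pigs per diet, most of these differences were no larger than about 2 standard errors. For MX1, ISG15 and ISG20 this left room for sizeable differences in either direction, and for OAS1 for a sizeable rise in HF pigs.

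Between lines, 1 of the 31 genes was called, against 3.61% of all kept probes and 1.81% in each direction. BST2 (tetherin), which holds budding viruses at the cell surface, was lower in low RFI pigs. It ran from 0.62 through a median of 1.36 to 2.27 in low RFI pigs and from 1.04 through 1.74 to 2.26 in high RFI pigs, and 20 of 24 low RFI pigs lay below the high RFI mean. The ranges overlapped. The difference was -0.40 (SE 0.112, a fold change of 1.32, limma BH p = 0.0330, n = 24 per line), below 0 on all 6 slides at -0.82 to -0.14. It was -0.25 in HF pigs and -0.55 in LF pigs, neither called alone, and BST2 rested on a single kept probe.

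BST2 moved with the T and NK cell list at r = 0.51 and with the plasmacytoid dendritic cell list at r = 0.14, over the 48 pigs of the same arrays after group means were removed. Of the marker genes, IL3RA, listed for plasmacytoid dendritic cells, was called lower in low RFI pigs (-0.31, limma BH p = 0.0550). The other 2 kept markers of that list, TCF4 (-0.03) and GZMB (-0.01), were not called. The T and NK cell list ran the other way between lines, with a mean of -1.37 in the low RFI line against -1.48 in the other, and none of its markers was called. The mean level of the T and NK cell list ran from -1.94 to -0.32 in LF_RFIneg and from -1.99 to -1.15 in LF_RFIpl, and from -1.83 to -0.78 in HF_RFIneg and from -1.76 to -0.996 in HF_RFIpl. The part of these cells in the BST2 difference was not tested.

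XAF1, a pro-apoptotic protein, had the line difference farthest from 0 on the probes used here but was not called. It ran from -1.65 through 0.21 to 2.17 in low RFI pigs and from -0.48 through 0.82 to 2.70 in high RFI pigs. The difference was -0.70 (SE 0.243, raw limma p = 0.00610, limma BH p = 0.124), below 0 on 5 of 6 slides, and it was called when arrays were weighted by their quality (-0.82, limma BH p = 0.0327). The other kept XAF1 probe gave -0.35 (raw limma p = 0.0902). In all, 5 of the 31 line differences lay above 0, with a median of -0.06 against -0.00171 over all kept probes, and between 2 and 5 lay above 0 under other scalings.

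No probe on the array was called for the diet by line interaction (0% of 38142 kept probes, with 867 at a raw limma p under 0.05). Among the 31 genes the diet difference in low RFI pigs minus that in high RFI pigs was above 0 for 26, with a median of 0.30. Over all kept probes 44.1% lay above 0, with a median of -0.015, and 81.3% with spike-in centring. Only OASL of the 31 had a raw limma p under 0.05 (0.49, SE 0.240, raw limma p = 0.0473), followed by IFI6 (0.63, SE 0.314, raw limma p = 0.0513). Diet differences lay above 0 for 25 genes in low RFI pigs and for 10 in high RFI pigs, against 40.7% and 47% of all kept probes. Of the 31 genes, 20 had their lowest group mean in LF_RFIneg. Since these genes rise and fall together in a pig, as described next, such counts reflect few independent values.

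The spread between pigs of a group was wide for most of the set. The SD between pigs of the same group had a median of 0.45 over the 31 genes, against 0.21 over all kept probes. It exceeded that array-wide median for 28 genes, and for 10 genes (32.3%) it exceeded 0.51, the level that the most variable 5% of kept probes pass. The genes with the widest spread were OAS1 (SD 0.96), MX1 (0.92), XAF1 (0.87), ISG15 (0.79) and ISG20 (0.78).

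From the lowest to the highest of the 48 pigs, MX1 spanned 32.1-fold, OAS1 29.0-fold, ISG15 24.6-fold, XAF1 20.4-fold and ISG20 13.2-fold. In ISG15 the lowest and highest pigs were at 1.27 and 5.21 in HF_RFIneg, 2.77 and 4.36 in HF_RFIpl, 2.31 and 4.49 in LF_RFIneg and 2.73 and 5.89 in LF_RFIpl. The 4 groups overlapped almost wholly in this gene. Both ISG15 probes followed the same pigs (r = 0.996), and are printed with the 43 bases they share in capitals.
ISG15, probe used here: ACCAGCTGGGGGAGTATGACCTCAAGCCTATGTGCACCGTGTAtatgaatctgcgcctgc
ISG15, other probe: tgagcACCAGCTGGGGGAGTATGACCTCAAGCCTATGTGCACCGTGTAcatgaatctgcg

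Most of the genes moved together across pigs. After group means were removed, each gene was set against the mean of the other members over the 48 pigs, which share the same arrays and scaling. The correlation had a median of 0.655 and was over 0.7 for 15 genes and over 0.5 for 25. It was highest for IFIT3 (r = 0.935), HERC5 (the ligase that attaches ISG15, 0.910), ISG15 (0.909) and IFIH1 (MDA5, a sensor of long viral RNA, 0.894). It was lowest for IRF3 (0.136), IFI16 (0.254), IRF1 (0.355) and OAS1 (0.370). In gene pairs, the rank correlation of OAS1 was higher than r with every other member except IFI16. With IFIT3 it was 0.58 against r = 0.38, and with IFI16 0.36 against r = 0.39.

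No gene had a correlation with the mean of the other members below 0. Over all kept probes the median correlation with the mean of the set was -0.05, and 139 probes (0.364%) passed 0.7. Of these, 29 were probes of the set itself, 9 were other interferon pathway probes and 101 were on neither list. The chosen probes of the set are part of that mean, so their correlation with it is in part built in. Leaving out, for each gene, the 2 pigs farthest from the median of the other members gave a median of 0.693. Of the 465 gene pairs, 205 had r over 0.5 and 14 had r below 0. IFIT3 with ISG15 was the highest pair (0.927), followed by ISG15 with HERC5 (0.907) and GBP1 with GBP2 (0.904), and IFI16 with IFIT5 the lowest (-0.288).

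**Figure D3:**
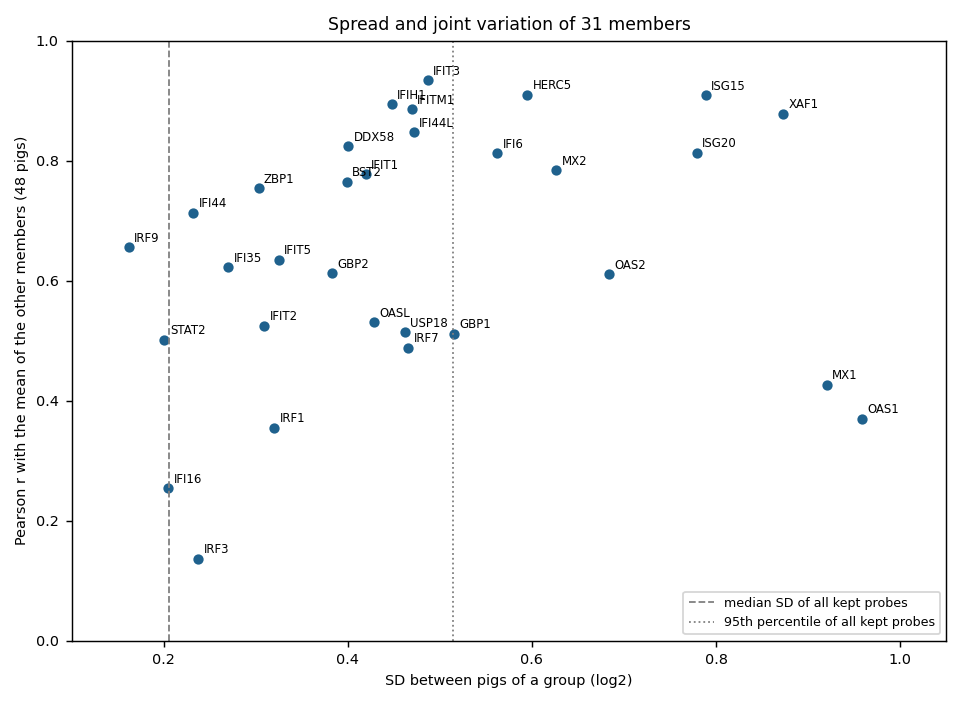
SD between pigs of a group (x axis, log2) against the Pearson correlation with the mean of the other members over 48 pigs (y axis) for each of the 31 genes, with the median (dashed, 0.21) and the 95th percentile (dotted, 0.51) of the SD of all kept probes. ISG15, XAF1, ISG20 and HERC5 combine a wide spread with a high correlation, MX1 and OAS1 have a wide spread with a low one, and IFI16 and IRF3 are low in both.

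Genes that lie next to each other in the RefSeq annotation of the Sscrofa11.1 assembly had r = 0.904 for GBP1 and GBP2, 0.842 for IFIT1 and IFIT3, 0.748 for OAS1 and OAS2, 0.639 for IFI44 and IFI44L and 0.598 for IFIT2 and IFIT3, while MX1 and MX2, with 1 gene between them, had 0.589. Cross-hybridization between these related genes was not tested.

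A score for each pig, the mean over the 31 genes of the value minus its mean over the 48 pigs, summed up this shared movement. The score averaged 0.06 ± 0.39 (SD, n = 12) in HF_RFIneg, 0.03 ± 0.18 in HF_RFIpl, -0.14 ± 0.38 in LF_RFIneg and 0.06 ± 0.35 in LF_RFIpl. It ran from -0.69 to 0.83 in HF_RFIneg, from -0.20 to 0.35 in HF_RFIpl, from -0.60 to 0.51 in LF_RFIneg and from -0.49 to 0.74 in LF_RFIpl. The groups overlapped almost wholly, and the diet and line means differed by 0.25 and -0.267 of the SD between pigs. The means of the 6 slides ran from -0.16 to 0.21. The score had r = 0.319 with the median signal of the array and r = 0.289 with its background, over 48 pigs, and the part of these in the score was not tested.

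**Figure D4:**
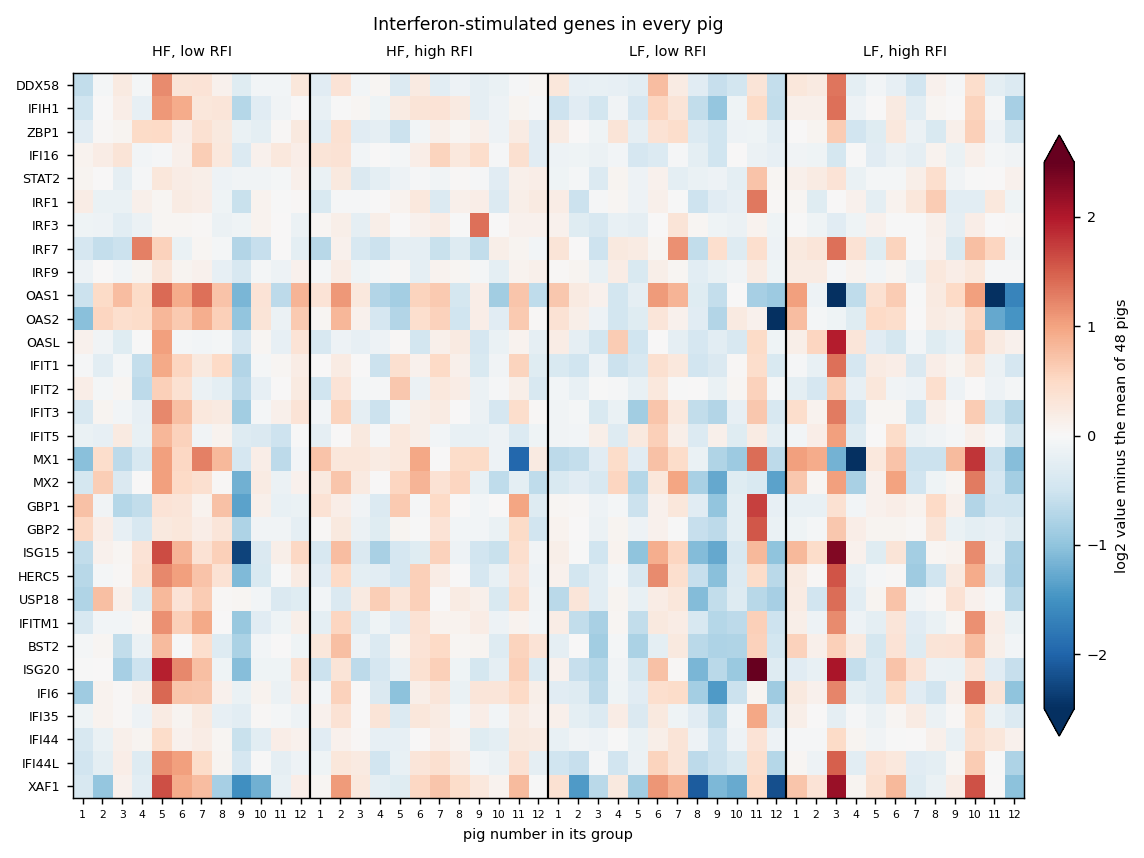
Value of each of the 31 genes (rows, ordered by role) in each of the 48 pigs (columns, 12 per group) minus its mean over all pigs, on a log2 colour scale from blue (below the mean) to red (above it), with values past 2.5 drawn in the end colours. Columns for HF low RFI pig 5 and LF high RFI pig 3 are red over most genes and HF low RFI pig 9 is blue, while OAS1, OAS2 and MX1 are dark blue in a few single pigs.

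The highest score, 0.83, belonged to HF_RFIneg pig 5, in which 30 of the 31 genes lay above their mean. ISG20 was farthest above its mean in this pig at 1.94 (3.84-fold), and IFI16 was the gene just below its mean (-0.02). OAS1 (1.41), IFI6 (1.43), BST2 (0.78) and IRF9 (0.31) were at their highest of all 48 pigs there.

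LF_RFIpl pig 3 had the next score, 0.74, and the highest value of the 48 pigs in 15 genes, among them ISG15 (2.31 above its mean, 4.94-fold), XAF1 (2.15), OASL (1.97), HERC5 (1.57), IFIT1 (1.37) and IRF7 (1.37). In the same pig OAS1 stood 2.75 below its mean (6.71-fold lower), the second lowest of all pigs, and MX1 1.19 below, while OAS2 was near its mean (-0.11). Both OAS1 probes, which share no run longer than 5 bases and are printed for that reason, gave the second lowest value there.
OAS1, probe used here: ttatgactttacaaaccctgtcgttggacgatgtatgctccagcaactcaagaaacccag
OAS1, other probe: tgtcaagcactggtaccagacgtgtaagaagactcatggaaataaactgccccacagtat

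LF_RFIpl pig 10 had a score of 0.54, with MX1 farthest above its mean (1.79, 3.46-fold) and GBP1 farthest below (-0.73). LF_RFIneg pig 11 followed at 0.51 with another set of leading genes, and it was described after its values were seen. It had the highest value of all pigs in ISG20 (2.58), GBP1 (1.71), GBP2 (1.56), IRF1 (1.33), IFI35 (0.96) and STAT2 (0.72), while OAS1 (-0.82) and USP18 (-0.70) lay below their means. The chemokines CXCL9 (3.63) and CXCL10 (3.45) and the lysosomal enzyme IFI30 (1.52) were also at their highest of the 48 pigs there. IFNG, which is known to induce them, was second highest (0.75). Of the 12 other interferon targets kept, 10 lay above their mean in this pig, and PML (-0.23) and TDRD7 (-0.02) below. The part of IFNG in the values of this pig was not tested.

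**Figure D5:**
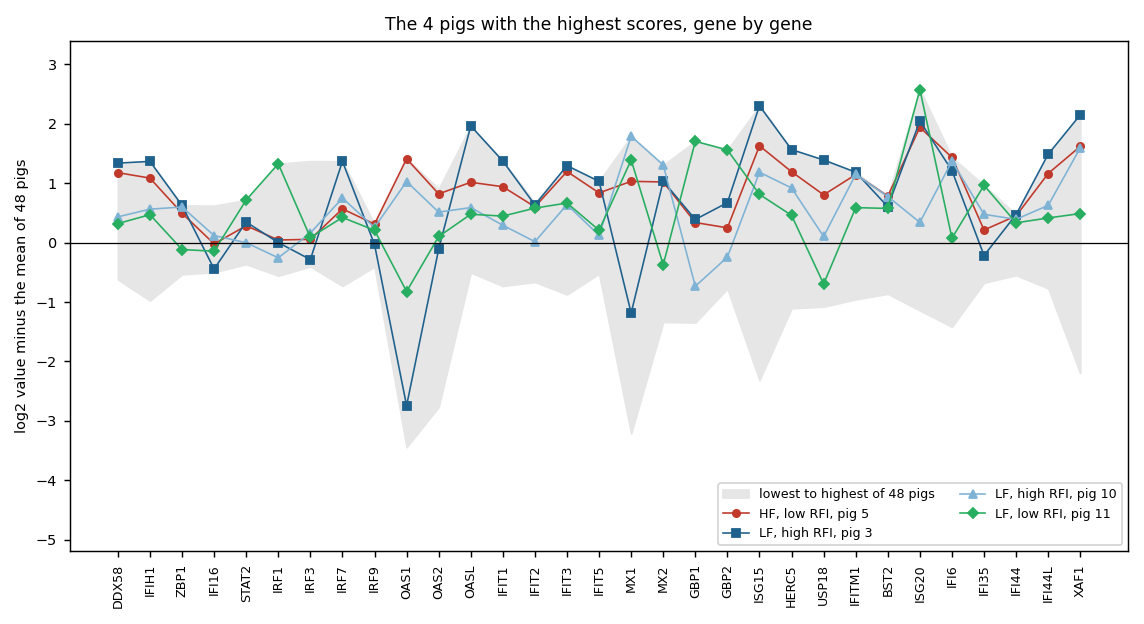
Log2 value minus the mean of 48 pigs for each of the 31 genes in the 4 pigs with the highest scores (lines with markers), with the range of all 48 pigs in grey. HF low RFI pig 5 is above 0 in all but IFI16, LF high RFI pig 3 reaches the top of the range in 15 genes but lies near the bottom in OAS1, and LF low RFI pig 11 leads in the GBP genes, IRF1 and ISG20.

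The lowest score, -0.69, was that of HF_RFIneg pig 9, with ISG15 2.32 below its mean and the lowest of all pigs, as were 9 further genes. LF_RFIneg pig 9 (-0.60) and LF_RFIneg pig 12 (-0.56) came next. On the probes used here, OAS2 was 2.77 below its mean in pig 12, XAF1 2.20 and MX2 1.34, each the lowest of the 48. All 5 OAS2 probes were at their lowest there, while the other XAF1 probe ranked 3 from the lowest and another MX2 probe ranked 4. Single genes also fell far below their mean in other pigs. MX1 was at its lowest in LF_RFIpl pig 4, 3.21 below its mean on the probe used here and lowest on all 7 MX1 probes. MX2 was 0.82 below its mean in that pig on the probe used here, but its other probes lay -0.40 and 0.08 from theirs. OAS1 was at its lowest in LF_RFIpl pig 11 (-3.44), where OAS2 was also low, 1.28 below its mean.

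Markers of other cells varied with the score to differing degrees, over the 48 pigs after group means were removed. The T and NK cell list had r = 0.517 with the score (0.451 without the 2 pigs farthest from the median score), the granulocyte list 0.219, the macrophage list 0.20, the plasmacytoid dendritic cell list 0.048 and the adipocyte list -0.339. For the T and NK cell list, LF_RFIneg pig 11 ranked highest of the 48 pigs, HF_RFIneg pig 5 ranked 4, LF_RFIpl pig 3 ranked 7 and LF_RFIpl pig 10 ranked 48. The part of these cells in the score was not tested.

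Of the other genes of the interferon pathway, 73 were listed and 43 had their chosen probe kept. Of the 43, 6 were called higher and 3 lower in HF pigs, 20.9% in all against 24.5% of all kept probes, and centring on spike-in transcripts turned this split to 16 higher and 1 lower. Of the 11 listed interferons, IFNG was the sole one with its chosen probe kept, well above background on 40 arrays, and it differed by -0.03 between diets (SE 0.105), while the chosen probes of IFNA1, IFNB1 and IFNE were above background on 21, 4 and 2 arrays and were not kept.

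Among the receptors IFNAR1 was higher in HF pigs by 0.16 (limma BH p = 0.00342). It ran from -0.25 through -0.02 to 0.27 in HF pigs and from -0.42 through -0.22 to 0.13 in LF pigs, with overlapping ranges. Of the regulators that damp the signal, SOCS3, an inhibitor of JAK kinases, was higher (0.40, limma BH p = 0.0231, called by 1 of its 3 probes), as was the repressor IRF2 (0.18), while the phosphatase PTPN11 was lower (-0.19, limma BH p = 0.0298). IRF5, a factor in macrophage activation, was higher (0.27, limma BH p = 0.0140).

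In the relay from sensors to interferon production, TRIM25, which activates RIG-I, was higher (0.42, limma BH p = 9.39e-04) and so was TMEM173 (STING, the adaptor for cytoplasmic DNA; 0.16), while TICAM1 (TRIF, the adaptor of TLR3) was lower (-0.36, limma BH p = 8.87e-04). TICAM1 ran from 0.81 through 1.45 to 1.85 in HF pigs and from 0.96 through 1.79 to 2.28 in LF pigs, with overlapping ranges. Of the other interferon targets, TDRD7 was lower (-0.24, limma BH p = 0.00225) and the other 11 kept were not called. None of the 9 genes called had a correlation above 0.32 with the score across the 48 pigs.

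Between lines, 2 of the 43 pathway genes (4.65%, against 3.61% of all kept probes) were called, both higher in low RFI pigs. TRIM25 differed by 0.44 (SE 0.098, limma BH p = 0.00413). TRAF6, a ubiquitin ligase in Toll-like receptor signalling, ran from 0.70 through 2.87 to 3.47 in low RFI pigs and from 0.63 through 2.08 to 3.25 in high RFI pigs. It differed by 0.88 (SE 0.209, a fold change of 1.84, limma BH p = 0.00871), but only 1 of its 2 kept probes was called.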

How the data were processed

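Perirenal fat RNA of 48 pigs was hybridized to one-colour Agilent arrays. The authors deposited scanner intensity values per spot, and a table of log2 values made by taking log2 of the Cy3 median signal of filtered spots and subtracting the array median, with R 2.10.0 per the submitters' processing notes. Row names of the deposited log2 table did not match their values. Each of its 38142 rows was therefore matched by value over the 48 arrays to exactly 1 spot (tolerance 1e-06) and named after that spot, which bore the same label as the row in 2 cases. A gene was represented by its non-control probe with the highest mean log2 signal.

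The model was limma 3.58.1 (lmFit and eBayes, R 4.3.3) over all 48 arrays with diet, line and interaction, checked on simulated data. Each array was a separate pig. The number of arrays limits the precision. Across the 48 arrays, the median raw intensity of kept probes ran from 382 to 638. It ran from 387 to 638 in HF pigs and from 382 to 559 in LF pigs. The part of array brightness in the diet differences was not tested. The gene list, the pathway list and the markers were chosen with earlier results of these data known. Genes named are those called, the highest and lowest diet difference of each role group, the 5 with the widest spread, the called pathway genes and the extremes of the 3 pigs with the highest scores; others are said to be picked after their values were seen or stand for a rank in a measure (the 4 highest and lowest correlations, a pair or a pig's top genes). Marker and score correlations are Pearson's r of residuals from group means and carry no test. Alternatives covered the probe filter, scaling, background correction, test, blocks, weights, thresholds and probe choice. Gene order was taken from the RefSeq annotation, and no coordinates are given.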

Additional observations from a re-analysis of the deposited data

Results flagged for a closer look

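The brightest probe of DHX58, a relative of the RNA sensors DDX58 and IFIH1, lies outside the compared data because the authors' filter did not keep it, yet it was well above background on 48 of 48 arrays. With no filter it ran from 0.74 through a median of 1.33 to 2.37, and it differed by 0.19 between diets (SE 0.10, raw limma p = 0.0646) and by 0.04 between lines, neither called. Its correlation with the score was 0.875 over the 48 pigs, and the dimmer DHX58 probe that was kept had 0.925.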

How the results depend on the processing

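IFI16 was called for diet in 15 of 16 alternatives (difference 0.30 to 0.42) and BST2 for line in 15 of 16 (-0.43 to -0.39), each lost only when a fold over 1.5 was required. IRF7 was called in 11 of 16. Diet calls among the 31 genes fell from 2 to 1 (IFI16) with quantile normalization (IRF7 -0.34), with normexp and quantile normalization (-0.34) and with array weights (-0.33), and to 0 with a fold over 1.5, while centring on spike-in transcripts lost IRF7 (-0.29) and added IRF3 (0.21). Line calls rose from 1 to 2 with array weights (XAF1) and fell to 0 with a fold over 1.5. Interaction calls stayed at 0 in all 16. Diet calls of pathway genes rose from 9 to 17 (16 higher, 1 lower) with spike-in centring, which moved the median diet difference of all kept probes by 0.108, and fell to 0 with a fold over 1.5, where line calls fell from 2 to 1 (TRAF6). The cause was not tested.

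The split of diet calls over all probes depended on scaling, at 3411 higher and 5922 lower as reported, 5022 and 4924 with the 75th percentile of the processed signal, 4547 and 4521 with quantile normalization, 4440 and 4149 with normexp and quantile normalization, and 9336 and 1703 with spike-in centring. With a fold over 1.5, 418 probes were called for diet and 221 for line. Of 992 values of single genes of the set, 983 kept their side of the threshold. Most of these were of genes not called as reported, so this count says little about how firm the calls are. Calls were lost in 7 values, all of IFI16, IRF7 or BST2, and gained in 2. None reversed while called, and 38 changed sign without being called under either setting. The score gave diet differences of 0.121 to 0.346 SD and line differences of -0.312 to -0.195 SD over its alternatives, its rank correlation with the reported score was at least 0.978, and at least 2 of the 3 highest pigs stayed among the 3 highest.

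With the replicate number as a block, 2 genes of the set were called for diet, 1 for line and 0 for the interaction, and 10167 and 1838 probes in all for diet and line. Arrays with the same number always shared a slide. Of 72 pairs of arrays with the same number, 38 had r over 0.1 (from -0.271 to 0.519), including all pairs of numbers 4, 5 and 6, and the numbers were not taken as a pairing of the pigs. Adding RSAD2 and EIF2AK2 by accession, an alternative chosen after seeing the data, changed no count of calls. A search for interferon response elements was not run because promoter sequences were not used here. Dim probes and single-probe genes such as BST2 have the least support.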
